A study of Mus musculus with 72 samples.

Results

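Actc1, the cardiac isoform of sarcomeric actin, Tcap, the titin cap protein telethonin, and 8 further genes of the giant sarcomere proteins and the thin-filament ends were followed through gastrocnemius muscle and heart of Bmal1 knockout mice. The 10 genes, taken by name, were Actc1, Acta1, Tcap, Ttn, Neb, Rbm20, Lmod2, Lmod3, Tmod1 and Tmod4, out of 55401 genes in the deposited tables. All 10 were found in both tables, and all 10 passed the filter on low values in gastrocnemius, in the GFP experiment and in heart. The genes were chosen by measured values of these same libraries, since Actc1 led the fall with age in earlier results and Lmod2 the rise with the GFP vector. No p-value is therefore given where a gene was called, had groups without overlap and was among the 3 genes of smallest p in its direction of a contrast, and the counts over the 10 genes describe them without supporting anything.

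All mice were male, and outside the GFP experiment tissue was collected at Zeitgeber time 1, soon after lights on. Gastrocnemius RNA came from WT mice, from global Bmal1-KO mice (KO) and from KO mice injected as pups with AAV9 that carries HA-tagged Bmal1 (KO+AAV). There were 6 WT, 6 KO and 7 KO+AAV libraries at 10 weeks and 5 of each group at 40 weeks. The vector's CK6 promoter is active in skeletal muscle fibers, and the study's protein blots showed no HA tag in heart, so that a KO+AAV heart is the heart of a knockout that received the vector. The study counted more vector genomes in heart than in skeletal muscle. A separate experiment held 3 libraries of KO mice given the same vector with GFP (KO-GFP) and 3 of KO mice without it (KO-Control) at 10 weeks, and heart held 4 KO and 4 KO+AAV libraries at 40 weeks. WT mice were littermates, and WT heart was not analysed here. The 10-week gastrocnemius libraries came from 2 sequencing sites, ICBR and Novogene, and all 40-week ones from Novogene.

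The libraries held 9325122 to 41733282 reads on genes in the main gastrocnemius set, 6754312 to 8515400 in the GFP experiment and 36903079 to 48641965 in heart. Arntl, the gene of BMAL1, had 402 to 634 normalized counts in WT and 196 to 296 in KO at 10 weeks, without overlap. At 40 weeks it had 480 to 608 in WT and 308 to 395 in 4 KO libraries, but 1039 in the library labelled KO replicate 2, which goes against that label. In KO+AAV it lay at 169 to 281 and 268 to 359, so that the gene counts did not separate KO+AAV from KO. In heart Arntl lay at 484 to 653 in KO and 627 to 821 in KO+AAV, ranges that overlapped. That difference was 0.32 on the log2 scale (SE 0.14, limma adjusted p = 0.862). The tissue labels held by marker sums, with cardiac markers at 26.6 to 192 in the main gastrocnemius set and 832582 to 2191924 in heart, and fast fiber markers at 879670 to 2989851 and 62.2 to 376. Within heart 2 libraries stood apart: the KO heart library of replicate 2 held 859141 normalized counts of the liver gene Alb against 153 to 216 in the other 7, and KO heart replicate 4 held 309047 of the atrial gene Nppa against 263 to 35104.

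In a sarcomere, thin filaments of actin are anchored at the Z-disc and slide past myosin. Titin runs from the Z-disc to the middle of the sarcomere, telethonin clasps its end at the Z-disc, and nebulin lies along the thin filament of skeletal muscle. Tropomodulins cap the free, pointed end of the thin filament, leiomodins bind there and promote its elongation, and RBM20 is the splicing factor that sets the length of titin's spring in heart. Adult skeletal muscle uses mainly Acta1, the skeletal actin, while Actc1 is the actin of heart and of developing or regenerating skeletal muscle. Tcap is a known target of the circadian clock in muscle.

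Actc1 (ENSMUSG00000068614) lies on the minus strand of GRCm38 at chr2:114047282-114053548 and Acta1 (ENSMUSG00000031972) on the minus strand at chr8:123891769-123894751. The coding sequences of both are 1131 bases long and 86.3% identical, with no stretch of 50 bases shared exactly between them. The first 120 coding bases are shown, since the comparison of both actins rests on reads that tell them apart. Capitals mark the 19 bases at which they differ.
Actc1: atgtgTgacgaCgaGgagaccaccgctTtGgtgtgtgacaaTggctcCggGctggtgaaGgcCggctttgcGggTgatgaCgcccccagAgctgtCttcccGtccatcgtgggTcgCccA
Acta1: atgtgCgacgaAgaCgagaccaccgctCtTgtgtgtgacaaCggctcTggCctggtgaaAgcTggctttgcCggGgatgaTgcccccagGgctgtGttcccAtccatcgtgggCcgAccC
The differing bases are spread over the stretch, nearly all of them at the last base of a codon.

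The 250 bases before the RefSeq start sites (GRCm38.p6) of Actc1, Acta1 and Lmod2 are shown because the actins differ in behaviour below and Lmod2 led the GFP contrast. They lie at chr2:114052876-114053125 and chr8:123894776-123895025 on the minus strand and at chr6:24597521-24597770 on the plus strand. Capitals mark the CArG box, the motif bound by SRF, searched on both strands as CC, then 6 bases of A or T, then GG. It began 47 bases before the start of Actc1 and 73 bases before that of Acta1.
Actc1: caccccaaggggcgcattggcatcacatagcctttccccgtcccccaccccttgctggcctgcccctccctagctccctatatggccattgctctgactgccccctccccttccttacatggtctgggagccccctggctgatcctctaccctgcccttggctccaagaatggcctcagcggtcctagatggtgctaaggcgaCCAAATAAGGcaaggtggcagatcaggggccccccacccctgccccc
Acta1: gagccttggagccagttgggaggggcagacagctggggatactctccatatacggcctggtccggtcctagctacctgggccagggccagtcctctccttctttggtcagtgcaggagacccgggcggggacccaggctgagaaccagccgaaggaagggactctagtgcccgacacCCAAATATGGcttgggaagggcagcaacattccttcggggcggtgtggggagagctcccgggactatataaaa
Lmod2: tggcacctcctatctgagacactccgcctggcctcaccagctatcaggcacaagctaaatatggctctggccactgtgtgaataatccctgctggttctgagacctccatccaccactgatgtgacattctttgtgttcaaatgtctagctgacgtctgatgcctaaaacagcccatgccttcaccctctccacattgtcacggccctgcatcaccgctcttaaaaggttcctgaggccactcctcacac
A CArG box was present in 1.47% of 32851 such upstream stretches. The clock's E-box, CACGTG, was present in 6.02% and in none of the 6 stretches at hand for the 10 genes, those of Actc1, Acta1, Ttn, Lmod2, Tmod1 and Tmod4. The Tmod1 stretch lay wholly in annotated exons of the gene, as did 38 bases of Tmod4, 12 of Actc1 and 9 of Lmod2. No stretch was at hand for Tcap, Neb, Rbm20 and Lmod3. The looser CANNTG, which includes CACGTG, was found in 66.2% of all stretches, in Acta1 2 times, in Lmod2 1 time and in Actc1 0 times. A match of letters is no sign of binding, and no match says only that the letters are not in this window.

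The first question was how loss of Bmal1 changed these genes in young and older muscle. Actc1 was lower and Tcap higher in WT than in KO at both ages. The other actin and both giant proteins were not called at either age. Actc1 in 10-week WT libraries ran from 1783 to 12754 normalized counts with a median of 4209. In KO it ran from 6175 to 37914 with a median of 9923. The groups overlapped, WT replicate 6 and KO replicate 5 standing above the rest of their groups. The log2 difference of WT from KO in Actc1 was -1.46 (SE 0.45, limma adjusted p = 0.0414), and the call was lost within the ICBR libraries (-1.21, adjusted p = 0.240) and within the Novogene libraries (-1.70, adjusted p = 0.269), and also without the site term (adjusted p = 0.0567) or without the filter on low values (adjusted p = 0.0818).

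Tcap (ENSMUSG00000007877, plus strand of chr11:98383811-98384953) ran at 10 weeks from 28271 to 32421 in WT with a median of 29714, and from 7094 to 12730 in KO with a median of 8630. The groups lay far apart, with every WT library above every KO library. The log2 difference was 1.79 (SE 0.22, limma adjusted p = 6.39e-07). Within ICBR libraries Tcap had a mean of 29233 ± 904 (SD, n = 3) in WT and 9646 ± 2765 (SD, n = 3) in KO, and within Novogene libraries 31092 ± 1774 (SD, n = 3) and 8158 ± 955 (SD, n = 3), so that WT stood above KO at either site. Of the 10 genes 1 was thus called higher in WT, where 4.26% of all genes tested were, and 1 lower, where 3.74% were. Tcap, 1 of the 10, had groups without overlap, beside 6.06% of all genes.

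At 40 weeks the Actc1 values in WT were 440, 434, 717, 546 and 328 normalized counts. In KO they were 5035, 2951, 1628, 2416 and 2823. Every KO library lay above every WT library, and the difference was -2.54 on the log2 scale (SE 0.50, limma adjusted p = 0.000321). The WT libraries of either age also entered the fall with age by which Actc1 was chosen. Its p-values against WT are therefore not independent of that choice. Tcap in WT was 29782, 35957, 31932, 35140 and 33923, and in KO 7222, 20921, 6914, 7435 and 10688. The library labelled KO replicate 2, which carried Arntl above the WT range, was the one with 20921. The log2 difference of Tcap was 1.79 (SE 0.24, limma adjusted p = 1.51e-06), and without that library it was 2.07, while that of Actc1 was -2.52.

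Tmod4, the tropomodulin of skeletal muscle (plus strand of chr3:95124476-95129209), was the further gene called at 40 weeks. Its values were 7234, 5959, 7088, 7714 and 6113 in WT and 6073, 3378, 3862, 5953 and 5931 in KO. The groups overlapped narrowly, through KO replicate 1 and WT replicate 2. The log2 difference was 0.47 (SE 0.14, limma adjusted p = 0.0139), and it lost the call without KO replicate 2 (0.34, adjusted p = 0.0692) or KO replicate 3 (0.39, adjusted p = 0.0523), and in a fit of both groups alone (adjusted p = 0.0950). Of the 10 genes 2 were called higher in WT at 40 weeks, where 12.0% of all genes tested were, and 1 lower, where 11.5% were. Actc1 and Tcap, 2 of the 10, had groups without overlap, beside 13.6% of all genes.

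Acta1, Ttn, Neb, Rbm20, Lmod2, Lmod3 and Tmod1 did not pass the test at either age. Acta1 ran from 363424 to 535653 normalized counts in WT and from 404853 to 498797 in KO at 10 weeks, and Ttn from 198053 to 238914 and from 169285 to 255910. Neb ran from 90389 to 131124 in WT and from 96728 to 135527 in KO. Each of these pairs of ranges overlapped. At 40 weeks Neb ran from 85941 to 117150 in WT and from 89721 to 174351 in KO. Its log2 difference was -0.30 (SE 0.16, limma adjusted p = 0.166). Those of Acta1 and Ttn at 40 weeks were -0.20 (SE 0.18, limma adjusted p = 0.470) and -0.04 (SE 0.14, limma adjusted p = 0.861). The median log2 difference over the 10 genes was -0.07 at either age, beside -0.01 and 0.01 over all genes tested.

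**Figure D1:**
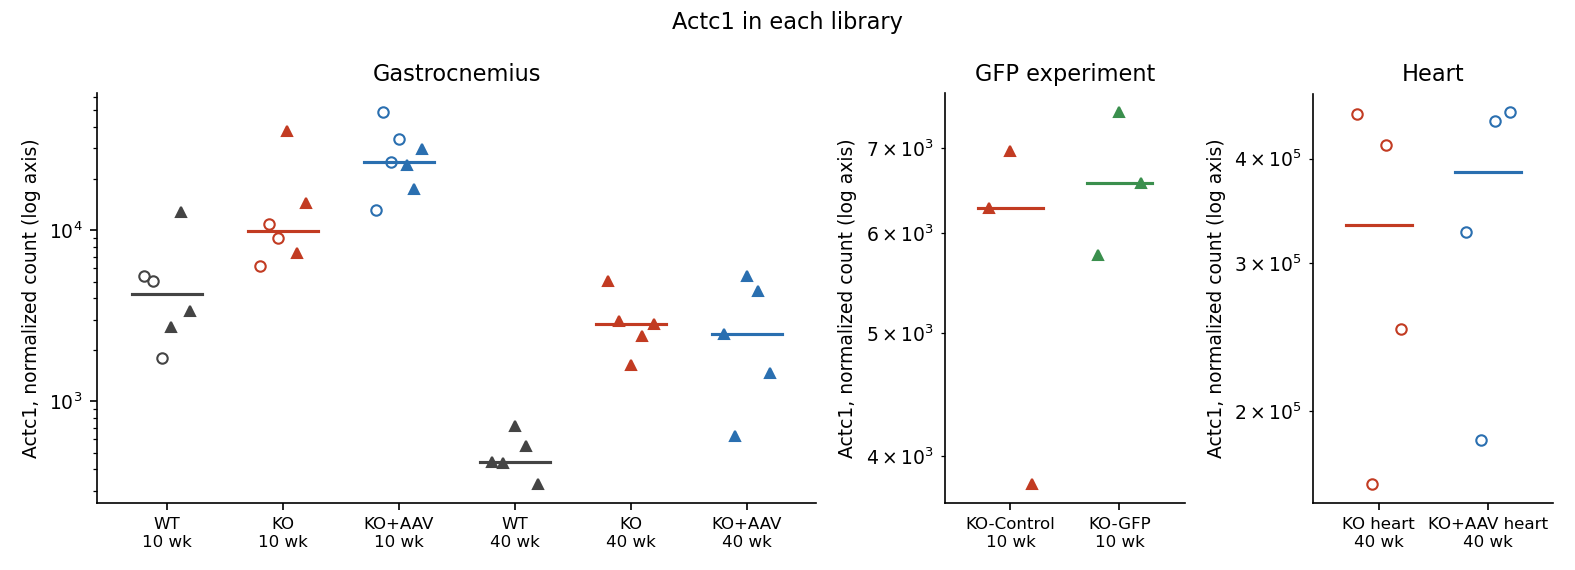
Actc1 in each library as normalized counts on log axes, in gastrocnemius, the GFP experiment and heart, which are drawn on separate axes. Open circles are ICBR and triangles Novogene libraries, bars are group medians. The 5 WT libraries at 40 weeks, 328 to 717, lie below all 10-week libraries and below all KO libraries of their age.

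**Figure D2:**
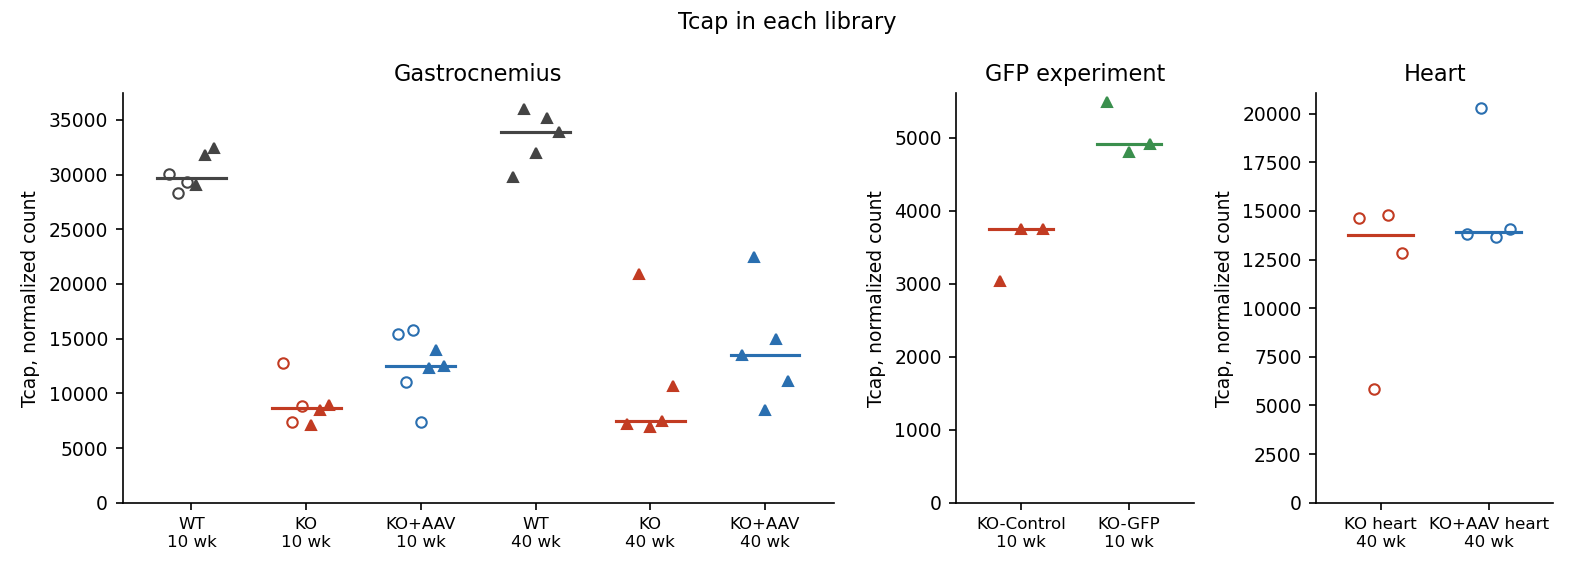
Tcap in each library as normalized counts on axes that start at 0, with symbols as for Actc1 (open circles ICBR, triangles Novogene, bars group medians). WT libraries lie at 28271 to 35957, above every KO and KO+AAV library; the GFP experiment and heart were normalized apart and have their own axes.

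The next question was whether vector-borne Bmal1 moved these genes towards WT. No member was called between KO+AAV and KO at either age. Actc1 in KO+AAV at 10 weeks ran from 13029 to 48928 with a median of 25154, the highest median of any gastrocnemius group, and away from WT. The difference from KO was 1.15 on the log2 scale (SE 0.44, limma adjusted p = 0.405), with 1.69 within ICBR and 0.54 within Novogene libraries. The 6 macrophage markers had positive differences in the same comparison, with a median of 1.28, but limma called 0 of them, with 5 at an unadjusted p under 0.05, edgeR 0 and DESeq2 0, and their sum lay at 446 to 2411 in KO+AAV and 257 to 697 in KO, with none of the 6 at 0 in all libraries of a group. Their part in the Actc1 difference was not tested. At 40 weeks KO+AAV held 2471, 626, 5424, 4399 and 1463, on both sides of most KO values, with a difference of -0.32 (SE 0.50, limma adjusted p = 0.888) that became 0.13 without KO+AAV replicate 2. That replicate also had the highest Tcap and Rbm20 values of its group.

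Tcap in KO+AAV ran from 7380 to 15771 at 10 weeks with a median of 12535, between the medians of KO and WT. At 40 weeks it was 13516, 22502, 8441, 14925 and 11107. The differences from KO were 0.50 (SE 0.21, limma adjusted p = 0.469) and 0.47 (SE 0.24, limma adjusted p = 0.521), and the second was 0.75 (adjusted p = 0.138) without KO replicate 2. In the GFP experiment Tcap was 0.53 higher with a vector without Bmal1 (SE 0.10, limma adjusted p = 0.0149). That call was lost without KO-GFP replicate 1 or 3. The part of the vector itself in the differences of KO+AAV from KO was not tested. At 10 weeks limma, edgeR and DESeq2 each called 0 of the 10 genes, beside 0.204% of all genes by limma. By limma 2, Actc1 and Tcap, had an unadjusted p under 0.05, beside 9.23% of all genes. At 40 weeks limma called 0, with 0 at an unadjusted p under 0.05, edgeR 0 and DESeq2 0, beside 0.259% and 10.1% of all genes. No member had groups without overlap at either age, beside 0.574% and 1.08% of all genes.

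Set against WT, KO+AAV muscle kept both differences. The log2 difference of WT from KO+AAV in Actc1 was -2.61 at 10 weeks (SE 0.44, limma adjusted p = 0.000223), with no WT library as high as the lowest of KO+AAV. Of the 6 macrophage markers 1 was called lower in WT there, beside 358 of 16199 genes tested, with a median of -1.08. Their sum lay at 327 to 1204 in WT and 446 to 2411 in KO+AAV, ranges that overlapped. At 40 weeks the Actc1 difference was -2.22 (SE 0.50, limma adjusted p = 0.00264), with the lowest KO+AAV library, 626, inside the WT range. Tcap was 1.29 higher in WT at 10 weeks (SE 0.21, limma adjusted p = 0.000151) and 1.32 higher at 40 weeks (SE 0.24, limma adjusted p = 0.00024), without overlap at either age. Within the Novogene libraries of 10 weeks the adjusted p was 0.163 for Actc1 and 0.0677 for Tcap. Of the 10 genes 2 were called at each age, beside 5.15% and 12.5% of all genes, and 2 and 1 had groups without overlap, beside 2.86% and 11.7%. These comparisons share their KO+AAV libraries with those against KO, and their WT libraries with those of WT against KO. Libraries of both groups also entered the falls with age in which Actc1 was chosen.

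Tmod4 at 40 weeks was 6089, 5001, 4681, 5528 and 4974 in KO+AAV, all below 4 of the 5 WT libraries. Its log2 difference of WT from KO+AAV was 0.38 (SE 0.14, limma adjusted p = 0.0776), short of the threshold.

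Age was compared within each genotype. Actc1 was among the 3 leading genes of the fall from 10 to 40 weeks in WT and in KO+AAV, and is described there without a test. In WT the 10-week values, 1783 to 12754, lay above the 40-week values, 328 to 717, with a log2 difference of -3.31. In KO+AAV they fell from 13029 to 48928 to 626 to 5424, a difference of -3.71. In KO they fell from 6175 to 37914 to 1628 to 5035, a difference of -2.23 (SE 0.51, limma adjusted p = 0.00786), and the call was lost in a fit of both KO groups alone (-2.52, adjusted p = 0.0935). No 40-week library of a genotype reached any of its 10-week libraries. Within Novogene libraries, in which both ages came from 1 site, WT differed by -3.36, KO by -2.52 and KO+AAV by -3.38.

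The order of Actc1 medians was thus KO+AAV, KO and WT at 10 weeks, then KO, KO+AAV and WT at 40 weeks. Actc1 was not called between KO+AAV and KO at either age, and the ranges of these groups overlapped. At 10 weeks the log2 difference of KO+AAV from KO, 1.15, was nonetheless larger than its SE of 0.44. At 40 weeks that difference, -0.32, was smaller than its SE of 0.50. The range of 40-week KO overlapped with that of 10-week WT. The age difference of WT minus that of KO was -1.08, and that of KO+AAV minus that of KO was -1.48. These values contain the contrasts in which Actc1 was chosen and are given without a test, so that a dependence of the age difference on genotype was not shown.

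The 9 other genes did not pass the test with age in any genotype by limma. The largest differences among them were those of Lmod2, the leiomodin that is abundant in heart (ENSMUSG00000029683, plus strand of chr6:24597762-24605414). Its log2 difference of 40 from 10 weeks was 0.79 (SE 0.50) for WT, 1.35 (SE 0.50) for KO and 1.22 (SE 0.50) for KO+AAV, with limma adjusted p = 0.776, 0.0878 and 0.121. At 40 weeks the WT libraries held 1059, 3360, 2722, 2239 and 3819 Lmod2 counts, the KO libraries 1695, 12572, 5527, 2332 and 2998, and the KO+AAV libraries 2875, 2393, 4521, 2687 and 4621. The 10-week ranges, 584 to 2755, 399 to 3646 and 965 to 2470, overlapped with them in every genotype. The 12572 was the library labelled KO replicate 2.

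Tmod4 had a difference of -0.39 in KO (SE 0.14, limma adjusted p = 0.0863). Rbm20 had one of 0.46 in KO+AAV (SE 0.20, limma adjusted p = 0.159), in which replicate 2 held 2891 against 1310 to 1595 in the other 4. Of the 10 genes 1, Actc1, was called in WT, KO and KO+AAV, beside 0.148%, 8.31% and 8.53% of all genes, and the same gene alone had groups without overlap, beside 2.64%, 4.94% and 5.88%. The counts of WT and KO+AAV were fixed by the choice of Actc1.

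**Figure D3:**
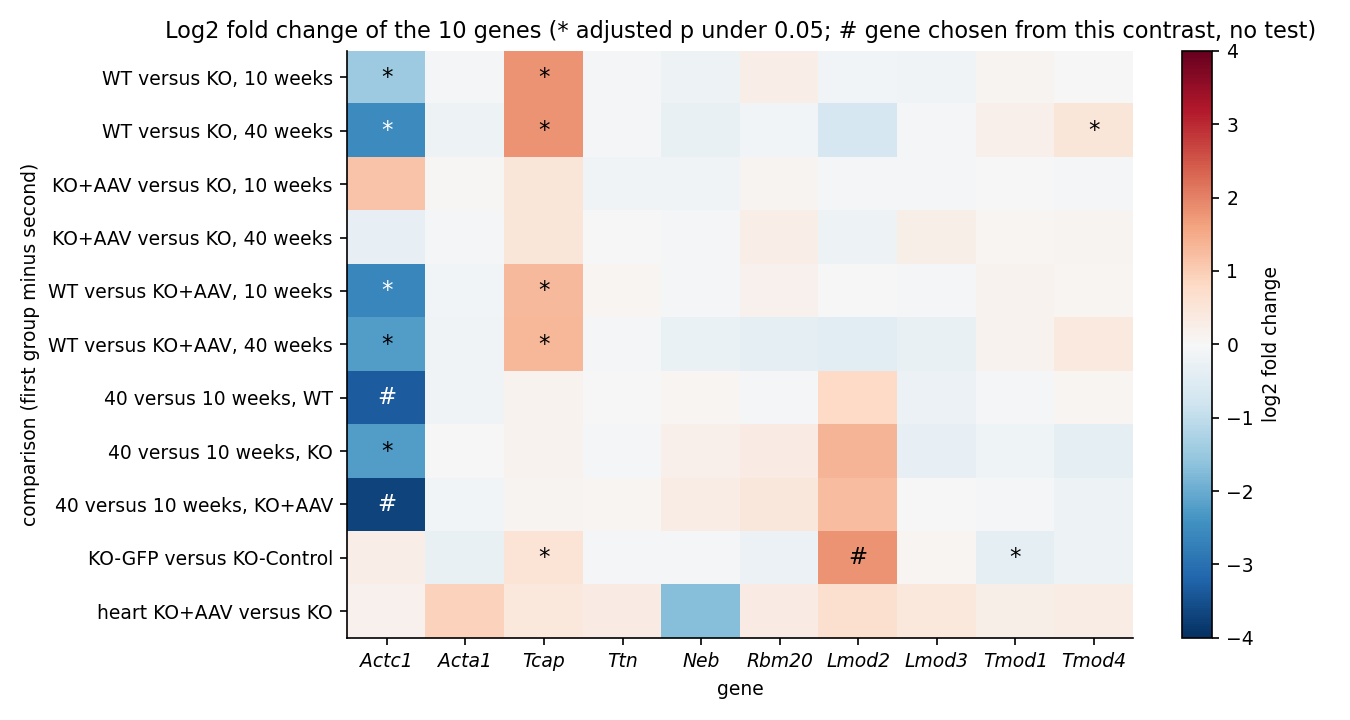
Log2 fold change of each of the 10 genes (columns) in each comparison (rows), coloured from blue, lower in the first group, to red, higher. Stars mark limma adjusted p under 0.05, and the hash marks contrasts in which a called gene without overlap was among the 3 of smallest p and is given without a test. Most stars lie in the columns of Actc1 and Tcap, and the column of Ttn is pale throughout gastrocnemius.

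KO mice given the GFP vector were compared with KO mice without it, to see what the vector alone went with. Lmod2 led all genes that were higher in KO-GFP and is described without a test. It held 1221, 1021 and 1134 normalized counts in KO-GFP and 339, 302 and 326 in KO-Control. The 3 values of each group lay close together and far from those of the other, a log2 difference of 1.80. Tcap held 5483, 4803 and 4916 in KO-GFP against 3034, 3751 and 3744, a difference of 0.53 (SE 0.10, limma adjusted p = 0.0149). Tmod1, the tropomodulin shared by heart, muscle and red cells (plus strand of chr4:46038935-46116032), went the other way, with 1919, 2042 and 1948 against 2408, 2621 and 2750, a difference of -0.39 (SE 0.08, limma adjusted p = 0.0235). Both lost the call without KO-GFP replicate 1 (adjusted p = 0.0573 and 0.0754) and without KO-GFP replicate 3 (adjusted p = 0.0859 and 0.155), and Tmod1 also without KO-Control replicate 2 (0.0616) or 3 (0.0666).

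Of the 10 genes 2 were called higher, Lmod2 by choice, beside 1.83% of all genes, and 1 lower, beside 1.26%. The same 3 had groups without overlap, beside 23.5% of all genes. Actc1 was 5766, 7471 and 6568 in KO-GFP and 6280, 6961 and 3800 in KO-Control, and Acta1, Ttn, Neb, Rbm20, Lmod3 and Tmod4 also did not pass the test.

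Markers of slow fibers moved with Lmod2 in this experiment. Of 8 slow fiber markers limma called 6 higher in KO-GFP, beside 1.83% of all genes, and 0 lower, while edgeR called 2 and DESeq2 1. The 8 had a median log2 difference of 2.78 beside 0.00 over all genes tested. Myl3, a slow and ventricular myosin light chain, was 1.99 higher (SE 0.24, limma adjusted p = 0.00133) and Myl2, a second one, 2.56 higher (SE 0.51, limma adjusted p = 0.019). Myl2 lost the call by DESeq2 (adjusted p = 0.0932), without KO-GFP replicate 1 (0.0668) and without KO-GFP replicate 3 (0.0938). The summed slow markers lay at 12114 to 17009 in KO-GFP and at 1461 to 8407 in KO-Control, with none of the 8 at 0 in all libraries of a group. KO-Control replicate 1 had the 8407, yet its Lmod2 count, 339, was near those of the other 2 controls. Macrophage markers moved too: limma called 4 of 6 higher, edgeR 4 and DESeq2 3, with C1qa 2.47 (SE 0.24, limma adjusted p = 0.00037) and Cd163 1.67 (SE 0.24, limma adjusted p = 0.00323), and their sum lay at 387 to 445 against 162 to 214. The part of either in the Lmod2 difference was not tested, and fewer cells of a type and less RNA per cell cannot be told apart in whole muscle.

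Over the 34 libraries of the main gastrocnemius set, log2 Lmod2 and log2 summed slow markers had a Pearson r of 0.645 and a Spearman rho of 0.657. The points share 6 groups and 2 ages, and the value is a description. For Tmod4 the Pearson r with the slow markers was -0.609, and for Actc1 it was 0.036. Lmod2 and Tmod4 themselves had an r of -0.76, on log2 levels centred within sequencing site, which the marker correlations were not.

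**Figure D4:**
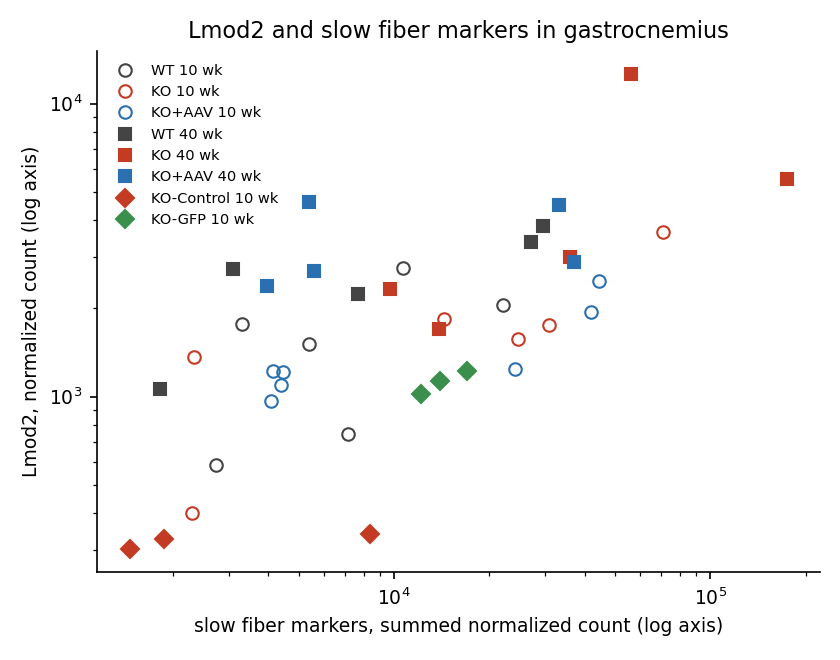
Lmod2 against the summed slow fiber markers, as normalized counts on log axes, 1 point a gastrocnemius library. Circles are 10 weeks, squares 40 weeks and diamonds the GFP experiment, which was normalized apart. The KO-Control libraries lie at 302 to 339 Lmod2 counts over slow marker sums of 1461 to 8407.

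Within a library the balance between paired genes does not depend on the size factor, and was read per kilobase of exon. Actc1 made up a median of 0.812% of the Actc1 and Acta1 level in WT at 10 weeks, 2.08% in KO and 4.51% in KO+AAV. At 40 weeks the medians were 0.106%, 0.583% and 0.564%. In heart the share ran from 94.3% to 99.6%, so that the highest share in gastrocnemius, 7.21%, was far from the heart balance. Lmod2 made up 24.1% to 52.0% of the Lmod2 and Lmod3 level in 10-week WT muscle and 43.0% to 69.1% at 40 weeks, with 25.8% to 31.8% in KO-Control, 52.5% to 61.1% in KO-GFP and 84.8% to 92.5% in heart. The highest gastrocnemius share, 94.0%, was again the library labelled KO replicate 2 of 40 weeks. Tmod1 made up 22.2% to 40.3% of the Tmod1 and Tmod4 level in gastrocnemius and 88.6% to 94.3% in heart.

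**Figure D5:**
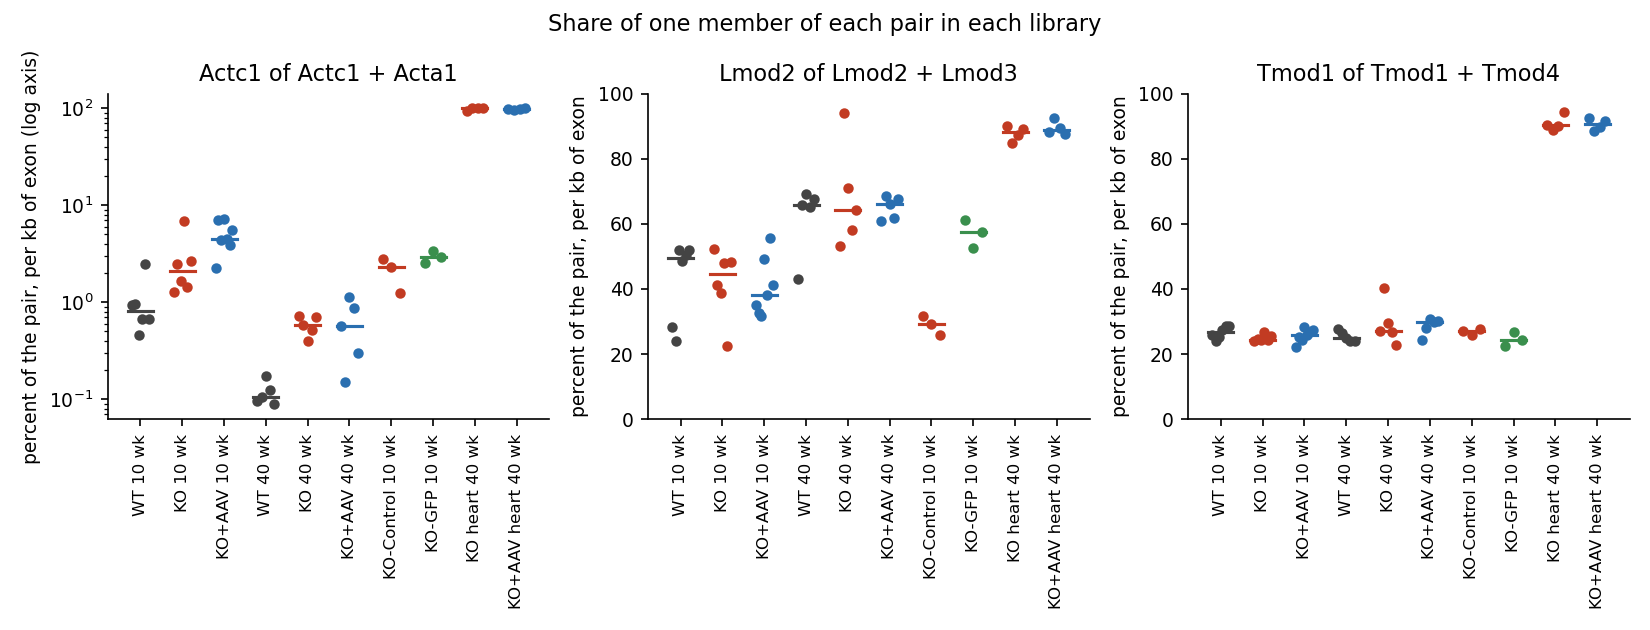
Share of Actc1 in Actc1 plus Acta1 (log axis), of Lmod2 in Lmod2 plus Lmod3, and of Tmod1 in Tmod1 plus Tmod4, per kilobase of exon, in each library (points) with group medians (bars). The heart libraries lie above 84% in each panel, and the gastrocnemius libraries below 8% for Actc1 and below 41% for Tmod1.

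On the same scale per kilobase, Acta1 had the highest median of the 10 genes in 10-week WT muscle, 308266 normalized counts per kilobase, followed by Tcap with 31344, Tmod4 with 3877, Neb with 3756, Actc1 with 2601, Ttn with 1792, Tmod1 with 1542, Lmod3 with 954, Lmod2 with 831 and Rbm20 with 194. In this order Tmod4, Neb, Actc1 and Ttn overlapped with their neighbours in range, as did Tmod1, Lmod3 and Lmod2, while Acta1, Tcap and Rbm20 each stood apart. In KO heart Actc1 stood first with 205863, followed by Tcap with 14491 and Lmod2 with 10102, and Neb last with 12.8. The levels of the tissues were set by size factors computed apart and are not compared gene by gene.

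Heart was compared between KO+AAV and KO at 40 weeks. Limma called 0 of the 10 genes and 0.00% of all genes, with 1 of the 10 at an unadjusted p under 0.05, beside 1.28% of all genes, and edgeR and DESeq2 called 0 each. Actc1 held 452077, 163677, 415804 and 250367 in KO and 326790, 184585, 444164 and 454548 in KO+AAV. The lowest KO value was replicate 2, the library with the liver gene, and the next lowest replicate 4, the library with Nppa. Tcap held 14656, 5844, 14788 and 12818 against 13826, 20310, 13655 and 14045, Lmod2 29577, 8659, 25602 and 14321 against 24647, 28963, 30461 and 25997, and Rbm20 8029, 3924, 9583 and 9591 against 8894, 8549, 9951 and 9289. KO replicate 2 was lowest in each of these 4 genes, and without it the ranges of Actc1, Tcap and Rbm20 overlapped widely.

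Neb, at low level in heart, was the 1 gene of the 10 whose groups did not overlap, beside 1.85% of all genes. It held 279, 933, 312 and 367 in KO and 186, 127, 82.2 and 138 in KO+AAV, a log2 difference of -1.69 (SE 0.41, limma adjusted p = 0.862). The 933 was again KO replicate 2. The difference was -1.30 without it and -1.20 without replicates 2 and 4 together, and it passed the test in none of the alternatives run. Acta1 held 26078, 619, 1884 and 1543 in KO and 9788, 7510, 3852 and 2049 in KO+AAV, where KO replicate 1 was the highest and the other 3 KO libraries lay below all 4 of KO+AAV.

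Around these genes, lists of partners were counted in WT against KO. Of 36 genes of titin and its Z-disc partners, Tcap among them, 2 were higher and 2 lower in WT than in KO at 10 weeks, and 4 higher and 14 lower at 40 weeks. Over all genes tested 4.26% were higher and 3.74% lower at 10 weeks, and 12.0% and 11.5% at 40 weeks. Ankrd1, a stretch-responsive protein that binds titin's spring, had a log2 difference of WT from KO of -1.65 at 10 weeks (SE 0.37, limma adjusted p = 0.00299) and -3.89 at 40 weeks (SE 0.40, limma adjusted p = 1.38e-08), the former lost within Novogene libraries (adjusted p = 0.286). Bag3, a chaperone partner that maintains the Z-disc, differed by -0.997 at 40 weeks (SE 0.15, limma adjusted p = 1.43e-05), and Nexn, an actin-binding Z-disc protein, by 0.75 (SE 0.11, limma adjusted p = 1.09e-05). The median of the list was -0.18 at 10 weeks and -0.43 at 40 weeks.

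Among 7 tropomodulins and leiomodins, 1 was higher in WT at 10 weeks, beside 4.26% of all genes, and 2 at 40 weeks, beside 12.0%, and 0 were lower. The gene higher at both ages was Lmod1, the leiomodin of smooth muscle, with 0.93 (SE 0.20, limma adjusted p = 0.00173) and 1.04 (SE 0.22, limma adjusted p = 0.000641). The 10-week call was lost within ICBR (adjusted p = 0.141) and within Novogene libraries (adjusted p = 0.0590). The 5 other smooth muscle markers tested did not pass the test at either age. Among 18 factors of thin-filament turnover and length, 1 was higher at 10 weeks, beside 4.26% of all genes, and 1 was higher and 6 lower at 40 weeks, beside 12.0% and 11.5%. Klhl40, which stabilizes nebulin and Lmod3, differed by -0.74 at 40 weeks (SE 0.16, limma adjusted p = 0.000748) and Xirp1, a marker of fiber damage and repair, by -1.40 (SE 0.32, limma adjusted p = 0.00186), while the profilin gene Pfn2 differed by 0.46 (SE 0.12, limma adjusted p = 0.00533). The medians of these lists lay between -0.07 and 0.21.

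SRF is the factor whose motif, the CArG box, was matched in the upstream stretches of both actins. Of 9 genes of SRF and its actin-sensing coactivators, 1 was higher in WT at 10 weeks, beside 4.26% of all genes, and 2 were higher and 1 lower at 40 weeks, beside 12.0% and 11.5%. Srf itself was 0.51 higher in WT at 10 weeks (SE 0.09, limma adjusted p = 0.000192) and 0.87 higher at 40 weeks (SE 0.10, limma adjusted p = 9.17e-08), opposite in sign to Actc1. The part of SRF in the Actc1 difference was not tested. Within ICBR libraries alone the 10-week call was lost (0.52, adjusted p = 0.09995). Abra, an actin-binding activator of these coactivators, differed by -1.03 at 40 weeks (SE 0.28, limma adjusted p = 0.00639). In KO-GFP, 8 genes of this list were tested, with 1 called higher, beside 1.83% of all genes, and 2 lower, beside 1.26%. The median was -0.58, and 1 of the 8 differences was positive. That was Abra, 0.91 higher (SE 0.10, limma adjusted p = 0.000938), while Mrtfb, a coactivator, differed by -0.88 (SE 0.11, limma adjusted p = 0.00144). Of 11 splicing regulators with Rbm20, 0 were called by limma in WT against KO at 10 weeks, with 0 at an unadjusted p under 0.05, and 1 was higher at 40 weeks, beside 12.0% of all genes. Srpk3, a muscle kinase of splicing factors, differed by -0.86 in KO-GFP (SE 0.11, limma adjusted p = 0.00172). Of 36 titin and Z-disc genes 8 were higher in KO-GFP, beside 1.83% of all genes, and 2 lower, beside 1.26%. The median of this list was -0.09, with 16 of the 36 differences positive. Among the 8 were Myom3, an M-band protein, with 1.66 (SE 0.14, limma adjusted p = 0.000252) and Myoz2, a Z-disc protein of slow fibers and heart, with 1.46 (SE 0.13, limma adjusted p = 0.000252).

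Markers of immature or denervated fibers moved with Actc1 at 40 weeks. Of 7 tested, 2 were lower in WT at 10 weeks, beside 3.74% of all genes, and 7 at 40 weeks, beside 11.5%, with medians of -0.61 and -1.85. Chrna1, a subunit of the acetylcholine receptor, differed by -1.32 at 10 weeks (SE 0.19, limma adjusted p = 1.09e-05) and by -1.55 at 40 weeks (SE 0.21, limma adjusted p = 1.73e-06). Their summed level lay at 473 to 723 in 40-week WT and at 1492 to 3576 in 40-week KO, and at 660 to 955 and 1204 to 1671 at 10 weeks. The sum was higher in KO at 40 than at 10 weeks by its medians, 2799 against 1554, where Actc1 was lower. Over the 34 libraries log2 Actc1 and this sum had an r of 0.302 and log2 Tcap and the sum one of -0.747, as descriptions across 6 groups. The part of such fibers in either difference was not tested.

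Over the same 34 libraries the genes most like each of 4 members in log2 level, centred within sequencing site, were named by Pearson's r. They were Col4a2 (0.814), Eno1 (0.812) and Adora1 (0.806) for Actc1, and Stab2 (0.935), Slc2a3 (0.915) and Tmem100 (0.912) for Tcap. For Lmod2 they were Enah (0.889), Cobll1 (0.886) and Fhl1 (0.886), and for Rbm20 Ppp1r15a (0.906), Rrp12 (0.869) and Fam219a (0.843). The closest pairs within the 10 genes were Ttn with Neb (0.719) and Tmod1 with Tmod4 (0.601), while Actc1 and Tcap had an r of -0.573.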

How the data were processed

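Poly-A RNA-Seq libraries were made from gastrocnemius and heart. Per the study's methods, the authors used HISAT2 on GRCm38, HTSeq for reads per gene and DESeq2 for size factors. The deposited values are this signal, here normalized counts, with size factors set apart for groups of tissues and for the GFP experiment, and whole reads were recovered for 100% of values (tolerance 0.1 reads). Strand setting and annotation release are not given in the sources used here. GENCODE vM21 named 99.5% of 55401 identifiers.

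Log2(normalized count + 1) of genes with a mean above 5 was fitted with limma 3.58.1 (R 4.3.3, trend): the 34 gastrocnemius libraries in 1 fit with sequencing site as covariate, the 6 GFP-experiment and the 8 heart libraries in fits of their own. P-values were two-sided and Benjamini-Hochberg adjusted over all genes tested, called under 0.05; this scale understates the changes of low genes. EdgeR 4.0.16 and DESeq2 1.42.0 on the recovered reads were alternatives; edgeR called 1335 genes in WT against KO at 10 weeks, limma 690 higher and 606 lower. Other settings, sites apart, libraries left out and the replicate block were also tried. The limma fits were also run on simulated counts in which 200 genes were changed by known folds. The simulation held no site effect and no libraries that stood apart, and its outcome is not reported here.

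Libraries of a group differed by more than sampling noise (lowest chi-square per degree of freedom 3.48). The labels do not say that replicates were separate mice, so p-values measure the spread between these samples. The 10 genes and all lists were chosen with earlier results of these data known. Beside the 10 genes, up to 2 called genes of smallest p per list, comparison and direction could be named, and the 3 genes most like Actc1, Tcap, Lmod2 and Rbm20. Liver, white fat and lung libraries were not used here. Upstream sequences are from RefSeq (GRCm38.p6) and coding sequences from GENCODE.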

Additional observations from a re-analysis of the deposited data

Results flagged for a closer look

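There were 80 sets of values, 10 genes in 8 groups of 4 to 7 libraries. A library was flagged when its gap to its nearest neighbour was large for the range of its group. About 1 in 20 sets of independent normal values would hold such a library. The sets here share libraries and hold counts that are not on a log scale, so that rate is no benchmark. A library was flagged in 11 sets. In gastrocnemius these were Actc1 in WT replicate 6 at 10 weeks with 12754 normalized counts and in KO replicate 5 at 10 weeks with 37914, Tcap in KO replicate 1 at 10 weeks with 12730 and in KO replicate 2 at 40 weeks with 20921, Ttn in WT replicate 2 at 10 weeks with 238914 and in WT replicate 1 at 40 weeks with 232898, and Rbm20 in replicate 2 at 40 weeks of KO with 2609 and of KO+AAV with 2891. In heart they were Acta1 in KO replicate 1 with 26078, Tcap in KO+AAV replicate 2 with 20310 and Neb in KO replicate 2 with 933. Each was the highest library of its group.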

How the results depend on the processing

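Of 205 recounts of the called genes among the 10, 190 stayed within 1.5 times. In WT against KO at 10 weeks 1 gene was called without the filter, without the site term, in ICBR libraries alone and in Novogene libraries alone, in place of 2, and in WT against KO+AAV at 10 weeks 0 in Novogene libraries alone, in place of 2. For 40 against 10 weeks in KO, DESeq2 called 2 (Actc1 and Lmod2), the fit without site 2 and the 2 groups alone 0, in place of 1. With the replicate number as a block 5 genes were called there and 4 in KO+AAV, in place of 1 each; same-numbered libraries did not deviate together in every pair (8 of 17 pairs at 10 weeks and 5 of 15 at 40 weeks had a correlation above 0.1, 0 of 3 in the GFP experiment and 2 of 4 in heart), although KO and KO+AAV at 40 weeks correlated at 0.529 for replicate 2 and 0.570 for replicate 3, and the number is not shown to pair them. Leaving out 1 library in turn gave 1 to 3 genes for 40 against 10 weeks in KO (3 without KO replicate 1 and 2 without replicate 4 or 5), 1 to 3 for KO-GFP against KO-Control (1 without KO-GFP replicate 1 or 3), and 2 to 3 for WT against KO at 40 weeks; the other comparisons of 40-week muscle and of heart gave the same count each time, and the 10-week WT, KO and KO+AAV libraries, over 5 a group, were not left out in turn. The sign of Actc1 in KO+AAV against KO at 40 weeks turned to 0.13 without KO+AAV replicate 2 (range over libraries left out -0.64 to 0.13) and to 0.16 without both libraries of replicate 2, an alternative chosen after seeing the data, as was leaving out KO heart replicates 2 and 4. Of 855 refits of single fold changes 809 kept direction and side of the threshold. Why these values moved was not tested. Heart had 4 libraries a group with 2 that stood apart, and small differences there were not detectable.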
